A study of Homo sapiens with 3 samples.

Results

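The genes followed here are feedback targets of Wnt signalling and genes of the intestinal stem cell program, measured in the HT29 cell line after exposure to a derivative of linderapyrone. The 10 members were chosen by name: AXIN2, NKD1, RNF43, ZNRF3, NOTUM, DKK4, LGR5, ASCL2, EPHB2 and EPHB3. Of these 9 had a probe, and NOTUM had 2, which makes 10 probes of 24460 on the array. No probe is annotated to EPHB2, which was not analysed here. HT29 is an established human colorectal cancer line. The 3 groups were cells kept for 24 h with DMSO, the solvent control, with 5 µM of the derivative, or with 20 µM of it, and each group was measured on 1 one-colour array. Doses are in µM as in the treatment labels, although the titles write mM. The sources used here do not name the structure of the derivative.

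In Wnt signalling, beta-catenin enters the nucleus and, with TCF factors, switches on target genes, unless a destruction complex built on APC and axin degrades it first. Many of the targets are themselves brakes on the pathway, which makes them widely used readouts of its activity. In the intestine the same signal maintains stem cells at the base of the crypt and sorts cells along it. HT29 carries truncated APC, as many colorectal cancers do.

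The line was checked against markers of colon epithelium: 10 of 11 had a probe and all 10 were detected on every array. EPCAM, an epithelial surface protein, gave signals of 9660 with DMSO, 6213 with 5 µM and 7149 with 20 µM. The dimmest with DMSO were CDX2 at 92.6, CEACAM5 at 96.4 and CDX1 at 119.6, within the range of the fibroblast markers given next. Markers of other cells were also partly detected. Of the 6 fibroblast markers 4 were, with signals between 84.6 and 231 in DMSO, as were 3 of the 4 blood and immune markers with a probe and 3 of the 4 endothelial markers. PTPRC, the general leukocyte antigen, and PECAM1, an endothelial adhesion molecule, were below the detection threshold on all arrays. Detection near that threshold is weak evidence of expression. Of 2412 positions that carry no probe, 317 passed it with DMSO, 444 with 5 µM and 278 with 20 µM. The summed signal above blank was 253 with DMSO, 229 with 5 µM and 227 with 20 µM for the fibroblast markers, 78.9, 62.0 and 52.0 for the blood and immune markers, and 75.7, 58.6 and 62.1 for the endothelial markers. The signals of most members, given below, lie in the same range, and whether part of a member's signal comes from other transcripts was not tested. The median gene probe had a signal of 117 with DMSO, 107 with 5 µM and 110.3 with 20 µM, and between 85.6% and 86.2% of gene probes were detected per array.

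The members stood above the blank spots on all arrays and spread from the dim to the upper middle part of the array. With DMSO, 30.9% of gene probes were dimmer than NKD1, the dimmest member, and 78.5% were dimmer than the brighter NOTUM probe. The blank and negative control spots had a mean of 80.2 ± 1.12 with DMSO, 77.4 ± 0.992 with 5 µM and 77.8 ± 1.17 with 20 µM (SD over the 480 spots after trimming). Of these 480 spots, 0 were brighter than any member probe on the same array. NKD1 came nearest to them, with heights of 10.4, 7.54 and 8.29 blank SDs in the same order. Among the 2412 positions that carry no probe, 4 were brighter than NKD1 with DMSO, 5 with 5 µM and 11 with 20 µM. The other members stood higher: DKK4 had 24.5, 24.1 and 17.6 blank SDs, RNF43 26.1, 19.4 and 17.8, EPHB3 34.2, 33.2 and 27.3. ZNRF3 had 43.0, 38.0 and 28.0 blank SDs, and AXIN2 46.0, 34.1 and 28.5. ASCL2 had 67.3, 64.2 and 52.6, LGR5 71.2, 65.8 and 57.0, and the brighter NOTUM probe 191, 198 and 178. Heights say how well a probe was read. They do not order the genes by transcript level, since probes bind with different strength.

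**Figure D1:**
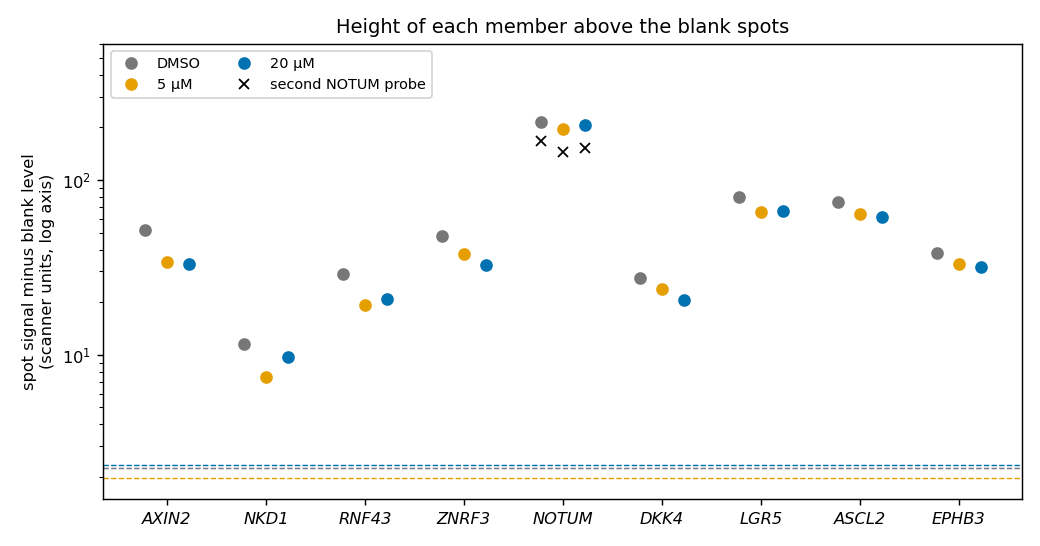
Spot signal minus the mean of the blank and negative control spots (log axis, scanner units) for the 9 measured members on the DMSO, 5 µM and 20 µM arrays, 1 point per array; crosses are the second NOTUM probe and dashed lines mark the detection threshold of each array. All members lie above the threshold, NKD1 nearest to it at 7.48 to 11.6 units, and the treated arrays lie below DMSO for every member before any scaling between arrays.

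Before scaling, all 10 member probes were dimmer on both treated arrays than on the DMSO array. So was the array as a whole: the median height of all gene probes above blank was 32.4 at 20 µM and 29.5 at 5 µM, against 36.3 in DMSO, which is 0.895 and 0.813 of the DMSO value. The comparisons below are therefore made after normalization between arrays. Log2 ratios are of corrected signal plus an offset of 50, quantile normalized, which shrinks the ratios of dim probes. Beside them stand folds of the height above blank with no offset, each array scaled to its median, called height folds. Each height fold has a 95% range computed from the spread between probes of the same gene at like brightness, which covers neither cultures nor hybridisations. In bulk RNA, fewer cells expressing a gene and less RNA per cell cannot be told apart.

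AXIN2 and NKD1 act inside the cell. Axin 2 is a scaffold of the destruction complex, and naked cuticle 1 binds Dishevelled, the protein that relays the receptor signal. AXIN2 gave signals of 131.8 with DMSO, 111.3 with 5 µM and 111.1 with 20 µM. These are unscaled signals, which were highest with DMSO for every member. Its log2 ratio to DMSO was -0.20 at 20 µM and -0.13 at 5 µM. On this scale both were the lowest among the 9 members, but at 5 µM NKD1 was lower in height folds and in the authors' value table. In heights, AXIN2 stood 33.2 units above blank at 20 µM and 33.9 at 5 µM, against 51.6 in DMSO. The height fold was 0.720 at 20 µM, with a range of 0.504 to 1.03 (SD between probes 0.26 in log2, 426 genes), and 0.808 at 5 µM, with a range of 0.618 to 1.06. Both ranges include 1.

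NKD1 gave signals of 91.8 with DMSO, 84.9 with 5 µM and 87.5 with 20 µM. Before scaling, the lowest array was that of 5 µM. Its log2 ratios of -0.024 at 20 µM and -0.051 at 5 µM stand against a small possible span, since a signal at the blank level would have read as -0.26. The height fold was 0.931 at 20 µM (0.572 to 1.52) and 0.792 at 5 µM (0.514 to 1.22).

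RNF43 and ZNRF3 are related membrane ubiquitin ligases that remove Frizzled receptors from the cell surface. RNF43 gave signals of 109.4 with DMSO, 96.6 with 5 µM and 98.6 with 20 µM. Before scaling, both doses lay below DMSO. Its log2 ratios were -0.10 at 20 µM and -0.091 at 5 µM, and its height folds 0.796 (0.499 to 1.27) and 0.810 (0.539 to 1.22). ZNRF3 gave signals of 128.4 with DMSO, 115.1 with 5 µM and 110.4 with 20 µM, lower with each dose before scaling. Its log2 ratio was -0.16 at 20 µM and -0.014 at 5 µM. The height fold was 0.756 at 20 µM (0.529 to 1.08) and 0.964 at 5 µM (0.738 to 1.26). Between the doses its log2 ratio was -0.15 for 20 against 5 µM, with a height fold of 0.785 (0.588 to 1.05). For both ligases every range includes 1.

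NOTUM and DKK4 are secreted. Notum is an enzyme that strips Wnt ligands of the lipid they need to bind their receptors, and Dickkopf 4 blocks the co-receptors LRP5 and LRP6. NOTUM was the 1 member with a log2 ratio above 0 at 20 µM. Its brighter probe gave signals of 293.9 with DMSO, 274.2 with 5 µM and 285.1 with 20 µM, and the other probe 246.5, 222.4 and 229.9. The log2 ratio of the brighter probe was 0.11 at 20 µM and 0.18 at 5 µM, and that of the other 0.055 and 0.12. The probes thus had the same direction at both doses. The height fold of the brighter probe was 1.08 at 20 µM (0.875 to 1.34) and 1.13 at 5 µM (0.898 to 1.43). DKK4 gave signals of 107.7 with DMSO, 101.3 with 5 µM and 98.4 with 20 µM. Its log2 ratio was -0.081 at 20 µM and 0.031 at 5 µM, on opposite sides of 0. The height fold was 0.835 at 20 µM (0.524 to 1.33), 1.07 at 5 µM (0.714 to 1.60) and 0.780 for 20 against 5 µM (0.514 to 1.18).

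LGR5 and ASCL2 mark intestinal stem cells. LGR5 is a receptor for R-spondins, which protect Frizzled from RNF43 and ZNRF3, and ASCL2 is a transcription factor of the stem cell program. LGR5 gave signals of 160.0 with DMSO, 142.6 with 5 µM and 144.3 with 20 µM. Its log2 ratio was -0.040 at 20 µM and 0.022 at 5 µM, and the height fold 0.931 (0.686 to 1.26) and 1.01 (0.797 to 1.27). ASCL2 gave signals of 155.6 with DMSO, 141.1 with 5 µM and 139.2 with 20 µM. Its log2 ratio was -0.056 at 20 µM and 0.048 at 5 µM, with height folds of 0.910 (0.664 to 1.25) and 1.04 (0.821 to 1.31). Both genes stood slightly above DMSO at 5 µM and slightly below it at 20 µM, in each case by less than the SD between probes of a gene. The direction at 5 µM turned with median scaling, which gave -0.050 for LGR5 and -0.021 for ASCL2.

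EPHB3 encodes a receptor for ephrin-B ligands that helps to position cells in the crypt. It gave signals of 118.5 with DMSO, 110.4 with 5 µM and 109.7 with 20 µM. The log2 ratio was -0.041 at 20 µM and 0.033 at 5 µM, and the height fold 0.930 (0.643 to 1.34) and 1.06 (0.785 to 1.43). EPHB4 and EPHB6, receptors of the same family, had log2 ratios of 0.16 and -0.29 at 20 µM, and EPHB1 was not detected on any array.

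As a group, 0 of the 9 members were at least 2-fold from DMSO at 20 µM, where 0.766% of 16062 genes were. At 5 µM the count was again 0, against 0.056% of 16075 genes, and between the doses 0, against 0.224% of 16036 genes. With shares this small, 0 of 9 is near the background. The members' log2 ratios ran from -0.20 to 0.11 at 20 µM, with a median of -0.056, while the median of all genes was 0.0071. At 5 µM they ran from -0.13 to 0.18 with a median of 0.022, while that of all genes was 0.0043. Of the members, 8 of 9 had a ratio below 0 at 20 µM, against 47.1% of all genes, and 4 of 9 at 5 µM, against 47.9%. Between 20 and 5 µM, 8 of 9 were below 0, against 50.4% of all genes, with a median of -0.072. With arrays scaled to their 75th percentile 4 of 9 members were below 0 at 20 µM, but that scaling moved all genes: 30.1% of them were below 0 and their median stood at 0.097. Set against the median of genes in the members' brightness range, 7 of 9 members were lower at 20 µM under this scaling, and 8 of 9 in the quantile normalized values. The members below DMSO at both doses were AXIN2, NKD1, RNF43 and ZNRF3, and the same 4 were in the authors' value table. With median scaling they were 5, AXIN2, RNF43, ZNRF3, LGR5 and ASCL2, while NKD1 stood at 0.016 at 20 µM and 0.015 at 5 µM. With scaling to the 75th percentile, which moved all genes upward at both doses, only AXIN2 was below DMSO at both. The share of all genes below DMSO at both doses was not counted, so these counts do not set the members apart. Both doses are set against the same DMSO array.

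**Figure D2:**
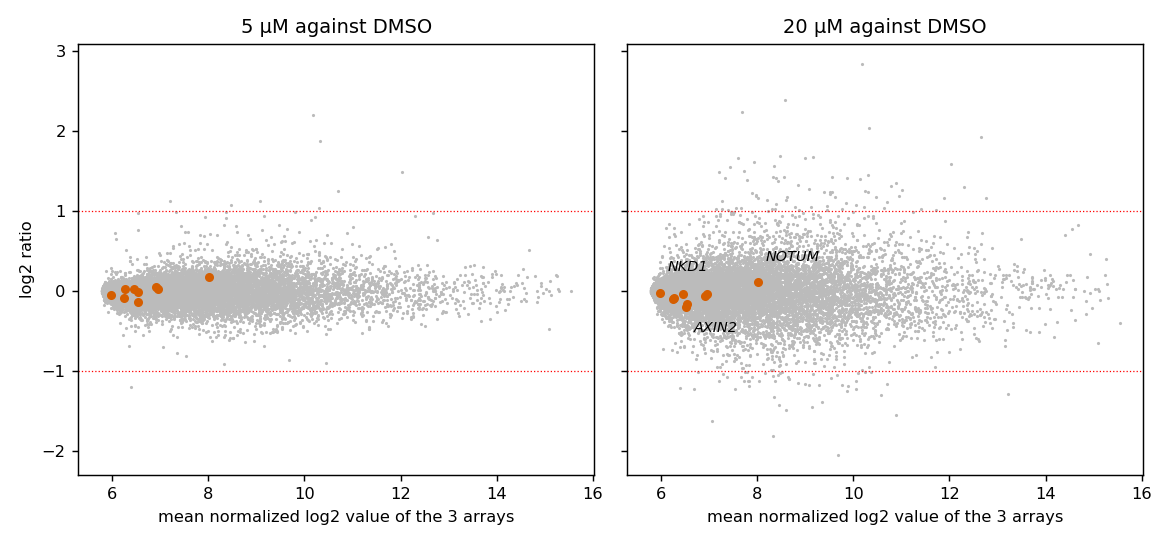
Log2 ratio of every gene detected on both arrays (grey) against its mean normalized log2 value over the 3 arrays, for 5 µM against DMSO (left) and 20 µM against DMSO (right); the 9 members are in orange and dotted lines mark 2-fold. The members lie between 5.98 and 8.02 in mean value and between -0.20 and 0.18 in ratio, inside the cloud of other genes in both panels.

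The spread against which these ratios stand was taken from genes with 2 detected probes. In the brightness range of the members, from 5.98 to 8.02 in mean normalized log2 value, the SD of a log2 ratio came to 0.13 at 20 µM against DMSO (908 genes), 0.093 at 5 µM against DMSO (907 genes) and 0.0997 between the doses (906 genes). All 9 members lay within 2 such SDs of 0 in all 3 comparisons. The share of other genes of this brightness within that limit was not counted, so this does not set the members apart. The middle 95% of the genes in this range spanned -0.44 to 0.40 at 20 µM and -0.27 to 0.22 at 5 µM, and every member lay inside it. Of all tested genes, 13.8% had a lower ratio than AXIN2 at 20 µM and 13.4% at 5 µM.

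What the arrays could have shown differs between members. On the normalized scale, a signal equal to the blank level would have read as a log2 ratio to DMSO of -0.90 for AXIN2, -0.85 for ZNRF3, -0.72 for EPHB3, -0.58 for RNF43 and -0.55 for DKK4. With NKD1, these 6 of the 9 members could not have been called 2-fold lower even with their signal lost. The other 3 could: LGR5 would have read -1.22, ASCL2 -1.17 and NOTUM -2.18. Of all genes tested at 20 µM, 52.2% had 2-fold lower within reach. A height of 0.5 times that in DMSO would have read as -0.38 for AXIN2, -0.36 for ZNRF3, -0.26 for RNF43, -0.25 for DKK4, -0.31 for EPHB3 and -0.13 for NKD1. For LGR5 it would have read -0.48, for ASCL2 -0.46 and for NOTUM -0.71. The ratios measured at 20 µM were all nearer to 0 than these.

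**Figure D3:**
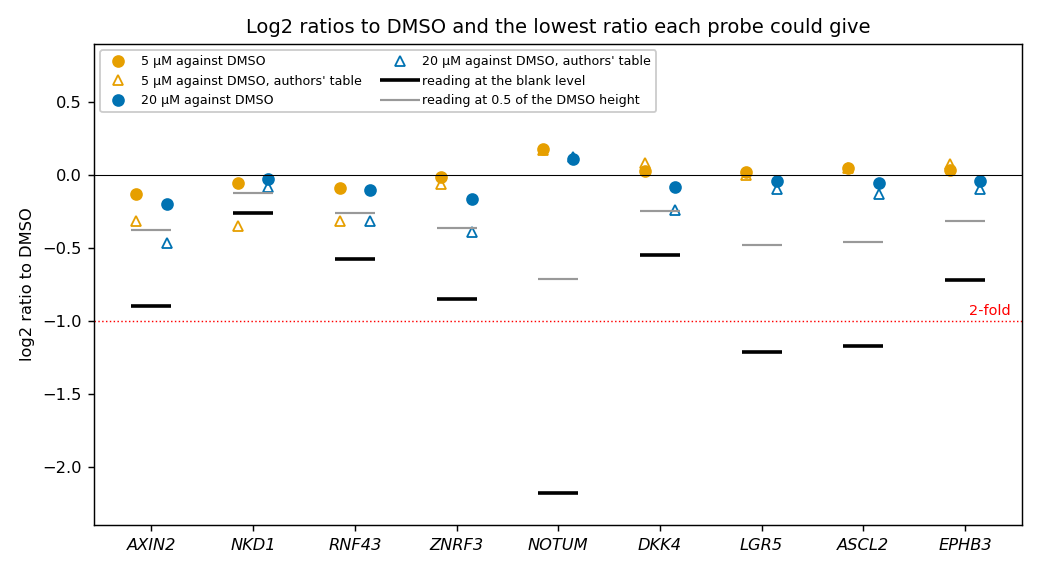
Log2 ratio to DMSO of the 9 members at 5 µM and 20 µM on the normalized scale (filled circles) and in the authors' value table (open triangles), with the reading that 0.5 times the DMSO height (grey bar) or a signal at the blank level (black bar) would give on the normalized scale; the dotted line marks 2-fold lower. The black bar lies above the 2-fold line for 6 members and below it for LGR5, ASCL2 and NOTUM.

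Scales with the blank level taken off and no offset do not have this limit. The height folds of the 9 members ran from 0.720 to 1.08 at 20 µM and from 0.792 to 1.13 at 5 µM. The range from the spread between probes included 1 for all 9 members at both doses. The share of other genes whose range includes 1 was not counted, so this does not set the members apart. At 20 µM its lower end was at or below 0.5 for 1 member, RNF43, at 0.499, and just above it for AXIN2, at 0.504. In the authors' value table, which also has about the blank level taken off, AXIN2 had values of 24.5 with DMSO, 19.7 with 5 µM and 17.8 with 20 µM, with a log2 ratio of -0.46 at 20 µM and -0.32 at 5 µM. ZNRF3 had log2 ratios of -0.39 and -0.060 there. In the order DMSO, 5 µM, 20 µM, RNF43 had values of 13.9, 11.2 and 11.2, LGR5 of 37.9, 37.9 and 35.5 and NOTUM of 101.4, 114.2 and 110.5. The table gave the members a median of -0.13 at 20 µM and 0.00013 at 5 µM. In it 0 of 9 were 2-fold apart at either dose, against 2.94% of all genes at 20 µM and 0.597% at 5 µM. The 1 array per group gives no measure of the spread between cultures.

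**Figure D4:**
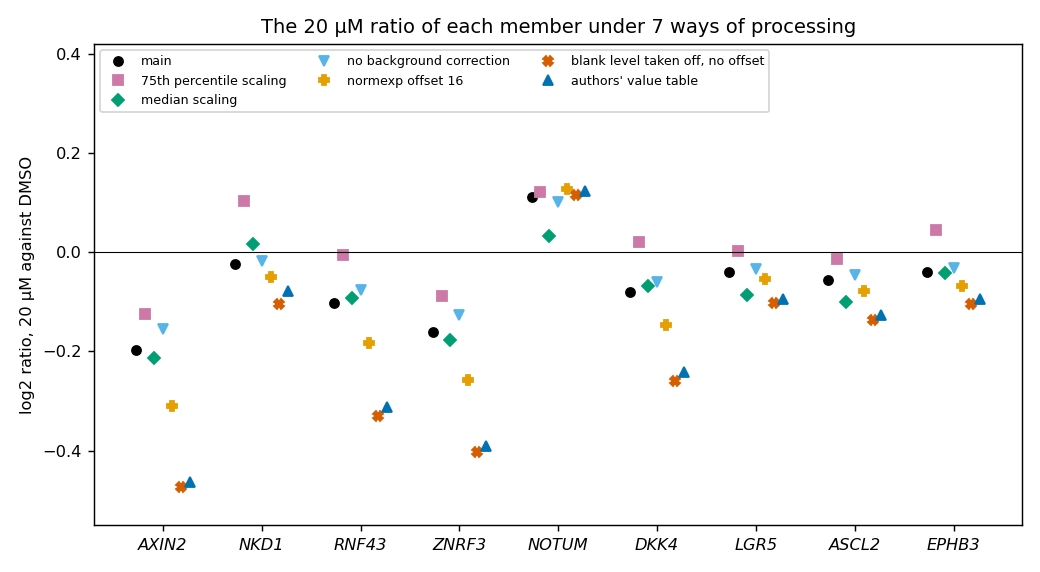
Log2 ratio of each member at 20 µM against DMSO under 7 ways of processing the same arrays, 1 symbol per way. AXIN2, RNF43, ZNRF3 and ASCL2 lie below 0 under all of them and NOTUM above 0, while DKK4, LGR5 and EPHB3 lie above 0 only with scaling to the 75th percentile and NKD1 with that and with median scaling.

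The genes whose pair of ratios lay nearest to that of AXIN2, among 6026 genes of like brightness detected on all 3 arrays, were ANKRD16, RBL1 and PPP1R12A-AS1, at distances of 0.0055, 0.0056 and 0.0089 in log2. RBL1, which encodes the retinoblastoma relative p107, had log2 ratios of -0.19 at 20 µM and -0.13 at 5 µM. A pattern like that of AXIN2 was common: 704 of these genes, 11.7%, lay within 0.13 of it, the SD between probes. The likeness rests on 3 arrays and on ratios to a shared DMSO array.

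Other genes of the pathway, taken from lists, spread more widely than the members. Of 28 other Wnt/beta-catenin targets 25 were detected, and 4 of them were at least 2-fold lower at 20 µM, where 0.324% of all genes were, with 0 at least 2-fold higher. The list was drawn up with results of these arrays known, so its counts and the medians below only describe it. Its median of -0.058 was close to the members' -0.056. Of its genes 16 of 25 were below 0, against 47.1% of all genes, and 9 were above 0. The highest was PLAUR, with a log2 ratio of 0.84 at 20 µM and 0.37 at 5 µM. ENC1, which encodes an actin-binding protein, gave signals of 1881 with DMSO, 816.1 with 5 µM and 412.8 with 20 µM, with a log2 ratio of -2.05 at 20 µM. ID2, an inhibitor of differentiation factors, gave 354.7, 180.7 and 150.2 in the same order and a ratio of -1.23. BMP4, a ligand of the BMP pathway, had a ratio of -1.23 and SLC12A2, a chloride transporter, of -1.15. SP5, a transcription factor that limits Wnt output, gave 265.4, 162.1 and 138.4 and a ratio of -0.91. In all 5 the log2 ratio was below 0 at 5 µM and lower again at 20 µM. They were named as the genes of the list farthest from 0 at 20 µM, which favours this order. The share of all genes with it was not counted. A ratio of 2-fold lower was within reach for 19 of the 25 other targets and for 3 of the 9 members. The median over those 19 genes was -0.35 and over all genes within reach -0.00093. Over those 3 members it was -0.040, which is the value of LGR5.

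Of 19 other stem cell genes 17 were detected, 14 of them below 0 at 20 µM, against 47.1% of all genes, and 2 at least 2-fold lower, against 0.324%. This list too was drawn up with results known, and 6 of its genes, CD44, CDCA7, PROX1, SLC12A2, SOX9 and TNFRSF19, are also in the list of other targets. The lowest was PTPRO, a receptor phosphatase, which gave signals of 190.7 with DMSO, 130.4 with 5 µM and 89.0 with 20 µM and a log2 ratio of -1.22, or -3.10 in the authors' value table. The other was SLC12A2, given above. SOX9, a transcription factor of the crypt base, had a ratio of -0.89, CDCA7 of -0.57 and the aldehyde dehydrogenase gene ALDH1A1 of -0.51. OLFM4, a stem cell marker of the human intestine, was not detected on any array. The median of the list was -0.094 at 20 µM and -0.084 at 5 µM.

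Of 40 partners of the feedback genes, among them Frizzled and LRP receptors, R-spondins, destruction complex genes and ephrins, 36 were detected and 0 were 2-fold apart at 20 µM, against 0.766% of all genes. For 18 of the 36, 2-fold lower was out of reach on this scale. The authors' value table had 1 of the 36 partners 2-fold lower, where 254 of 16062 genes were. It was the Frizzled receptor gene FZD4, at -1.10 against -0.27 on the normalized scale. The median of the partners was -0.018, with 20 of 36 below 0, against 47.1% of all genes. DKK1, a relative of DKK4, gave signals of 476.0 with DMSO, 312.9 with 5 µM and 260.4 with 20 µM and a log2 ratio of -0.75. LGR4, a relative of LGR5 and likewise an R-spondin receptor, gave 349.7, 251.0 and 242.5 and a ratio of -0.41. WLS, which carries Wnt ligands to the cell surface, stood at -0.33. AXIN1, the relative of AXIN2 in the destruction complex, was higher at 20 µM, with signals of 748.2, 590.9 and 874.7 in the order DMSO, 5 µM, 20 µM and a log2 ratio of 0.42 at 20 µM and -0.0044 at 5 µM.

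**Figure D5:**
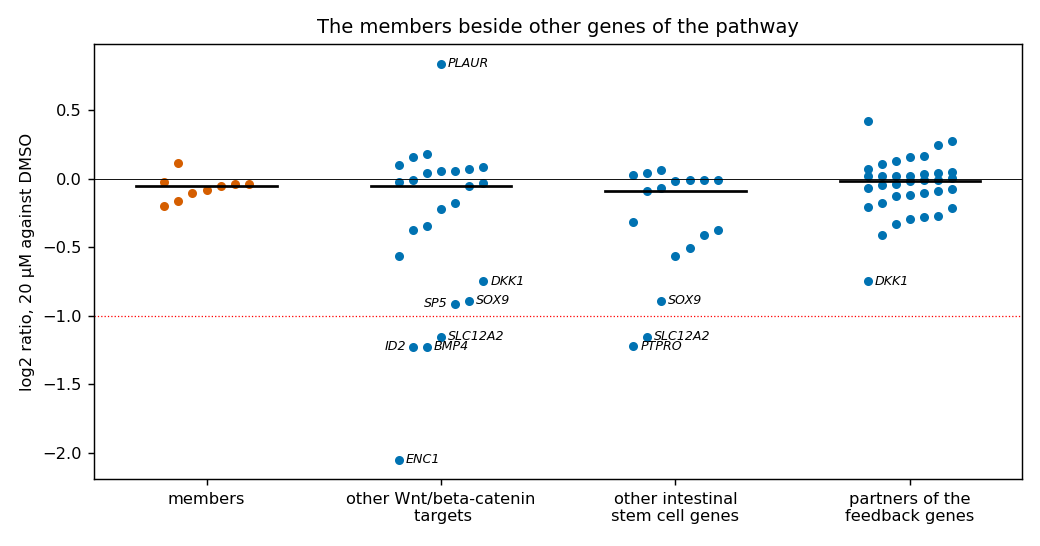
Log2 ratio at 20 µM against DMSO of each detected gene, 1 point per gene, for the 9 members (orange) and 3 lists of other genes (blue); black bars are medians, the dotted line marks 2-fold lower, and some genes stand in more than 1 list. The members lie between -0.20 and 0.11, while ENC1 reaches -2.05 among the other targets, although the medians of the 3 lists lie between -0.094 and -0.018.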

How the data were processed

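The authors deposited 1 scanner file per array and 1 value table. Per the file headers, a scanner file gives each spot's median brightness at 635 nm, a linear intensity that still holds the background, from an array read at 3 gains. The deposited value table holds an intensity per probe too. A straight line through it and the scanner signal met 0 at 80.05 for DMSO, 77.30 for 5 µM and 77.61 for 20 µM, and the mean of the blank spots alone, without their top and bottom 5%, was 80.05, 77.30 and 77.61. The table is thus linear, not centred per probe, and has a median of 25 in every column. Neither the labels nor the headers name the software. The scanner's local background column was not used.

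Spot signals were corrected with normexp in limma 3.58.1 (R 4.3.3), fitted on all spots with an offset of 50, and the log2 values of the 24460 gene probes were quantile normalized. The steps were checked on simulated arrays with known fold changes. These were set only on probes brighter than every member but NOTUM, so the check does not cover dim probes. Detection asked for a signal above the mean plus 2 SD of 480 blank and negative control spots, trimmed by 5% at each end. Names came from the platform annotation: 21707 probes have 1 gene symbol, 0 have several and 2753 have none; 21675 matched a current gene record of assembly GRCh38.p14, and 0 symbols changed. Of several probes, the one detected on most arrays and then the brightest on average stood for its gene. A gene entered a comparison when detected on both arrays. Other tools were Python 3.11.15, numpy 2.4.6, pandas 2.3.3 and matplotlib 3.10.9.

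With 1 array per group there was no test; genes were counted as called from a 2-fold difference. Spread was taken from genes with exactly 2 detected probes. The genes and gene lists were chosen with earlier results of these data known. The text names all members, from the 5 genes of each list farthest from 0 at 20 µM, and the 3 genes most like AXIN2; any other gene was chosen after its values were seen. Alternatives changed the scaling, the correction, the offset, the filter, the choice of probe and the source of the values.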

Additional observations from a re-analysis of the deposited data

How the results depend on the processing

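No member was 2-fold apart in any of the 3 comparisons under any of the 9 alternatives, so the counts of 0 were the same throughout. On the main scale 6 of the 9 members could not have been called 2-fold lower. The alternative filters and choice of probe reuse that scale, and median and 75th percentile scaling keep its offset of 50. The alternative offset of 16 is smaller but shrinks dim probes too, and values without correction still hold the blank level. How many members had 2-fold lower within reach under these was not counted, so their counts of 0 add little. The heights above blank and the authors' value table do not have this limit. No paired analysis was possible because every group has 1 array. The members' median kept within the spread between probes under all alternatives except 1: at 5 µM against DMSO it was 0.12 with scaling to the 75th percentile, in place of 0.022, while the median of all genes was also 0.12 there. Set against genes of like brightness, the members' median was -0.015 with that scaling and 0.016 with quantile normalization. At 20 µM the median lay between -0.14 and 0.0015, and between the doses between -0.17 and -0.057. The sign held under all 9 alternatives for 5 of 9 members at 20 µM, 4 at 5 µM and 7 between the doses, RNF43 standing at exactly 0 between the doses in the authors' table. The alternative filters and choice of probe left the ratio of every member but NOTUM unchanged, so they could not turn its sign. The share of all genes that keep their sign was not counted. AXIN2 lay between -0.47 and -0.13 at 20 µM and between -0.32 and -0.013 at 5 µM. ZNRF3 kept its sign at 20 µM as well. With the median and the median absolute deviation of the control spots, the height of the dimmest member, NKD1, was 8.25, 6.18 and 6.79 SDs in DMSO, at 5 µM and at 20 µM. Blank spots alone moved it by less than 1 SD. The brightness of the members over the blanks limits every value here, as does the single array per group.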

Other observations

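Genes of colon differentiation differed in direction at 20 µM. KRT20, a keratin of mature colon cells, gave signals of 1167 with DMSO, 1146 with 5 µM and 1927 with 20 µM, with a log2 ratio of 0.92 at 20 µM. CEACAM5, a surface glycoprotein of colon epithelium, gave 96.4, 95.3 and 125.9 in the same order and a ratio of 0.58, or 1.73 in the authors' value table. LGALS4, an intestinal galectin, stood at 0.54, while VIL1, which encodes the microvillus protein villin, stood at -0.48. The 10 detected markers of colon epithelium had a median of 0.044. Of them 5 were below 0, against 47.1% of all genes, and 0 were at least 2-fold apart, against 0.766%.

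Positions that carry no probe were not all dark. Of 2412 such positions, 317 exceeded the detection threshold with DMSO, 444 with 5 µM and 278 with 20 µM. The brightest had a signal of 134 with DMSO, 100.5 with 5 µM and 224 with 20 µM.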
